A study of Mus musculus with 12 samples.

Results

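The genes described here are 10 genes of skeletal muscle, Acta1, Actc1, Myh3, Myh8, Mylpf, Tnnc1, Tnnt2, Des, Myog and Myod1, as they were measured in cultures of chondrocytes. They were taken by name, through the platform's annotation, and are 10 of 18194 named genes, with 14 of the 45101 probe sets of the array. A probe set is a group of short oligonucleotides that reports 1 transcript. Of the 10 genes, 9 had a probe set whose group mean reached an intensity of 50 in any of the 4 groups, which is called expressed here, and Myh8 had none.

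The study asked which transcripts of growth plate chondrocytes respond to a pharmacological dose of glucocorticoid. The tibiae, femurs and humeri of CD1 mouse embryos at E15.5 were treated with trypsin, which was then exchanged for collagenase. Cells of the collagenase digest were plated as monolayers, and their RNA was hybridized to Affymetrix MOE 430 2.0 arrays. The DEX groups received 100 nM dexamethasone, a synthetic glucocorticoid, for 6 or 24 hrs, and the vehicle groups received the solvent DMSO for the same times, with 3 arrays per group that carry the replicate numbers 1, 2 and 4. Whole bones were digested, so that the label chondrocyte names the source of the cells and not a sorted population, and in such bulk RNA fewer muscle cells and less muscle RNA per cell cannot be told apart.

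Skeletal muscle fibres form when myoblasts leave the cell cycle and fuse. Myod1 and Myog are DNA-binding factors of the MyoD family that start this programme, Myod1 in myoblasts and Myog as they differentiate, and they bind short sequences called E-boxes. The fibres then fill with sarcomeres, in which a thin filament of actin, carrying troponin, slides along a thick filament of myosin, and embryonic muscle uses isoforms that are later replaced in part. In the limb, muscle lies directly against the forming bones.

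Promoter sequences of 9 of the 10 genes were found in RefSeq (GRCm38.p6), with 2 starts for Tnnt2, and Myod1 was not matched. Those of the differentiation factor and of both actins are shown as examples of a regulator and of structural genes. Myog and Actc1 varied closely together across the cultures, while Acta1 followed them less closely, as described below. Each run is the 250 bases before the transcription start, 5′ to 3′, and capitals mark E-boxes (CANNTG) and CArG boxes, the site of serum response factor.
Myog, chr1:134289754-134290003, + strand: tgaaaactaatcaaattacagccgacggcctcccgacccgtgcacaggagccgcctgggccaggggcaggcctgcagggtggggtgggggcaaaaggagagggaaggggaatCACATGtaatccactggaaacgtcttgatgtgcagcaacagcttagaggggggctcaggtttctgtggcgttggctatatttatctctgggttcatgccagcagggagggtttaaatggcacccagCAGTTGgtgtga
Acta1, chr8:123894776-123895025, - strand: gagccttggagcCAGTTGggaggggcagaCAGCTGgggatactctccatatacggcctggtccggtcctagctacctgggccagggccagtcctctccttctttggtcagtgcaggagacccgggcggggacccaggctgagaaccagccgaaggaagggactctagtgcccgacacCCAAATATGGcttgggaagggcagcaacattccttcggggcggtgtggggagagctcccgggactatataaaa
Actc1, chr2:114052876-114053125, - strand: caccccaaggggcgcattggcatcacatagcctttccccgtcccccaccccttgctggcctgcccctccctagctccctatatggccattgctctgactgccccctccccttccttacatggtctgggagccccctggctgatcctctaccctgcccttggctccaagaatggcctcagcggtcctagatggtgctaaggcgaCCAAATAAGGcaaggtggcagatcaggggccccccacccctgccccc
Of the 10 promoters, 9 held an E-box, and so did 66.2% of 32851 mouse promoters of the same length, searched on both strands. In Myog the E-boxes began at -138 and -12 from the start. A CArG box was found at -73 in Acta1 and at -47 in Actc1, and in 1.47% of all promoters. The motifs did not overlap each other. These matches describe letters in a window and no binding was measured.

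Of the thin filament genes, Acta1, Actc1 and Tnnc1 were above the minimum on all 12 arrays. Acta1, the actin of adult skeletal muscle fibres, had intensities of 159, 146 and 352 with DEX at 6 hrs in replicates 1, 2 and 4, against 167, 165 and 422 in vehicle. At 24 hrs it had 196, 114 and 306 with DEX, against 318, 80.3 and 355 in vehicle. Replicate 4 was the highest of every group and the DEX and vehicle ranges overlapped at both times. Actc1, the actin of heart and of embryonic skeletal muscle, had 473, 648 and 409 with DEX at 6 hrs, against 435, 703 and 377 in vehicle. The values at 24 hrs were 476, 126 and 352 with DEX, against 509, 208 and 813 in vehicle. Replicate 2 was thus the highest at 6 hrs and the lowest at 24 hrs, whichever treatment was given.

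Both troponin genes were lowest in replicate 2 at 24 hrs, with DEX and in vehicle. Tnnc1, the calcium-binding troponin of slow fibres and heart, had 121, 150.1 and 118 with DEX at 6 hrs, against 102, 185 and 131 in vehicle. After 24 hrs they were 127, 57.7 and 168 with DEX, against 121, 78.9 and 306 in vehicle. The highest single value, in replicate 4 in vehicle, lay above the DEX range, and the other vehicle arrays lay within it. Tnnt2, which anchors troponin to tropomyosin in heart and embryonic muscle, had 141, 138 and 96.8 with DEX at 6 hrs, against 141, 155 and 79.8 in vehicle. At the later time Tnnt2 had 107, 40.3 and 74.4 with DEX, against 85.7, 26.8 and 113 in vehicle. Its second expressed probe set, of a kind that can share oligonucleotides with other transcripts, ran from 17.3 to 109.8 over the 12 arrays, and replicate 2 was the lowest there as well at 24 hrs with both treatments.

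Of the thick filament genes, Myh3 reached 50 on 10 and Mylpf on 9 of the 12 arrays. Myh3, the embryonic myosin heavy chain, had 56.4, 108 and 90.5 with DEX at 6 hrs, against 50.9, 117 and 92.1 in vehicle. The later values were 107, 32.4 and 102 with DEX, against 94.7, 27.8 and 163 in vehicle. At 6 hrs same-numbered arrays lay close together and the replicates lay apart. Mylpf, the regulatory light chain of fast fibres, had 38.2, 70.8 and 91.1 with DEX at 6 hrs, against 47.5, 74.9 and 118 in vehicle. At the later time Mylpf had 106, 50.6 and 134 with DEX, against 118, 39.8 and 210.3 in vehicle. Myh8, the perinatal myosin heavy chain, lay between 1.77 and 26.0 on all 12 arrays, below the minimum, so that it was not tested.

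The regulators and the intermediate filament completed the set. Myog had 160.3, 237 and 129 with DEX at 6 hrs, against 164, 238 and 101 in vehicle. By 24 hrs Myog had 99.9, 27.3 and 88.8 with DEX, against 114, 52.7 and 150.2 in vehicle. In every same-numbered pair at 24 hrs the DEX array was the lower one, yet the 2 groups overlapped. Myod1 had 76.1, 75.5 and 67.1 with DEX at 6 hrs, against 70.2, 68.7 and 48.5 in vehicle. The 24 hrs arrays had 47.4, 33.5 and 44.5 with DEX, against 67.0, 48.9 and 70.7 in vehicle. Here all 3 DEX arrays at 24 hrs lay below all 3 vehicle arrays, and only 7 of the 12 arrays reached 50. Des encodes desmin, the muscle intermediate filament, and had 4.82, 7.75 and 54.8 with DEX at 6 hrs, against 7.15, 7.32 and 12.7 in vehicle. Its values at 24 hrs were 19.0, 10.9 and 49.1 with DEX, against 89.9, 30.5 and 46.7 in vehicle. Des passed the minimum only through vehicle at 24 hrs, with 2 of 12 arrays at 50 or above, and its comparisons therefore support nothing. A second Des probe set stayed below the minimum, with means of 39.4 with DEX and 38.7 in vehicle at 24 hrs. Its pairs differed there by -0.23, 0.075 and 0.31 on the log2 scale.

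**Figure D1:**
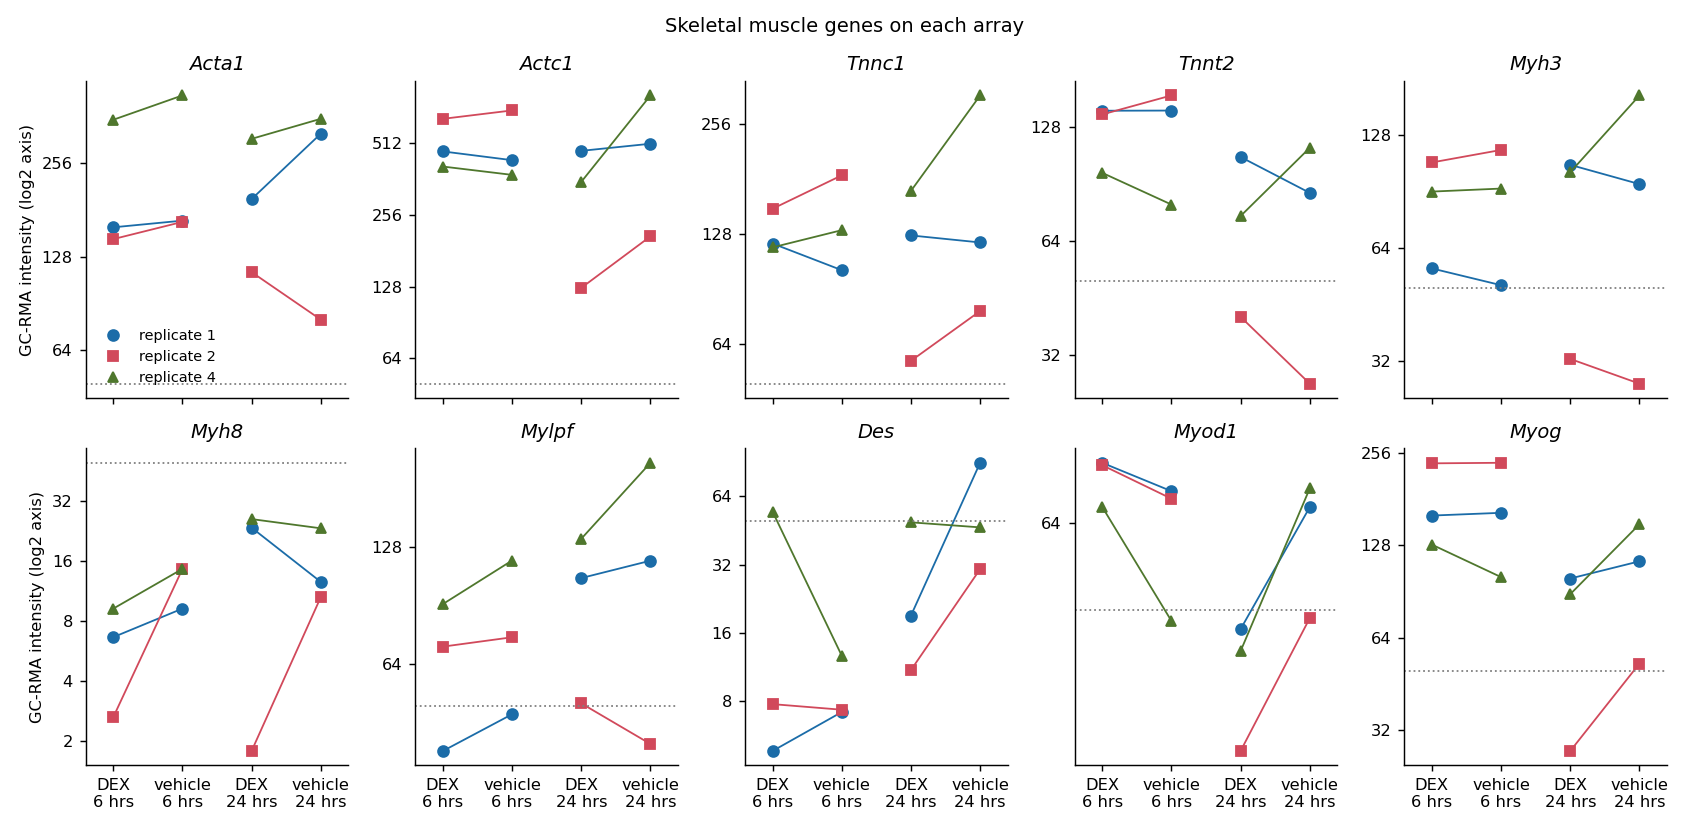
GC-RMA intensity (log2 axis) of the 10 muscle genes on each of 12 arrays, with DEX left of vehicle at each time, a line joining the arrays of 1 replicate number, and a dotted line at the minimum of 50. The red squares of replicate 2 lie lowest at 24 hrs in both groups for all 9 expressed genes, and Myh8 stays under the dotted line.

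In the fit without a block, DEX changed none of the 9 tested genes past the threshold. With limma over all 12 arrays and an adjusted p under 0.05 over 20897 expressed probe sets, 0 of 9 tested genes were called at 6 hrs, where 0.225% of all probe sets were. At 24 hrs 0 of 9 were called, against 0.287% of all probe sets, and over both times 0 of 9, against 0.747%. At an unadjusted p under 0.05 the counts were 0 of 9 at 6 hrs (3.66% of all), 1 of 9 at 24 hrs (6.24%) and 0 of 9 over both times (5.65%). Log2 fold changes of DEX over vehicle at 6 hrs ran from -0.26 in Mylpf to 0.54 in Des, with a median of 0.037, against -0.0096 over all probe sets. At 24 hrs they ran from -1.22 in Des to 0.10 in Tnnt2, with 8 of 9 below 0 and a median of -0.42, against -0.030 over all. Des is counted in these figures, although it passed the minimum only through vehicle at 24 hrs, where that favours a value below 0. The next lowest at 24 hrs was Actc1, at -0.68. With the pairs or the day as a block, 0 of 9 were called at 6 hrs and over both times, against 0.904% and 3.2% of all with the pairs and 0.948% and 2.87% with the day. The standard error per gene was between 0.21 and 0.83, against a median of 0.26 over all probe sets. The 95% intervals at 24 hrs reached from -3.05, in Des, to 1.33 over the 9 genes.

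Myod1 had the narrowest spread of the 9 and was the gene with an unadjusted p under 0.05 at 24 hrs. DEX over vehicle came to -0.57 on the log2 scale (SE 0.21, 95% interval -1.04 to -0.099, limma adjusted p = 0.640), and DEX was lower in 3 of 3 pairs, with differences of -0.50, -0.55 and -0.67. The change at 6 hrs was 0.24 (SE 0.21, adjusted p = 1.00), higher in 3 of 3 pairs. With the hybridization day as a block, the adjusted limma p at 24 hrs was 0.0316, and with the same-numbered pairs as a block it was 0.0576, where these fits called 2.18% and 2.15% of all probe sets. Over the other alternatives it reached 1.00. The difference between the effects at the 2 times was -0.81 (SE 0.30, adjusted p = 1.00), so that it was not past the threshold. Among the others, Actc1 and Myog were lower with DEX in 3 of 3 pairs at 24 hrs, with log2 fold changes of -0.68 (SE 0.55) and -0.63 (SE 0.54) and adjusted limma p of 1.00 for both.

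**Figure D2:**
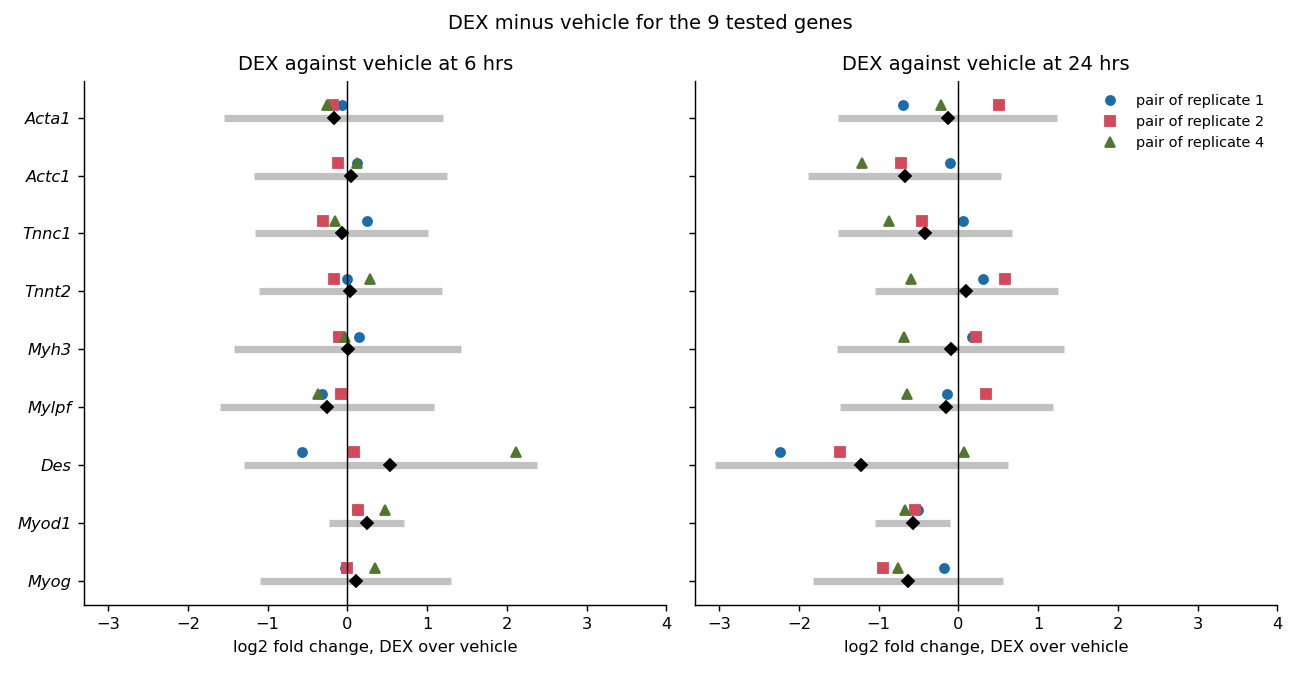
DEX over vehicle on the log2 scale for the 9 tested genes at 6 hrs (left) and 24 hrs (right). Coloured symbols are the 3 same-numbered pairs, diamonds the fitted log2 fold change and grey bars its 95% interval from limma, and at 24 hrs the interval leaves 0 out for Myod1 alone.

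Genes known to respond to glucocorticoids in muscle, several of which respond in other cells too, rose in the same cultures, and the cells that expressed them were not identified. Of 13 expressed genes listed for the glucocorticoid response of muscle, 4 rose with DEX at 6 hrs (Klf15, Tsc22d3, Mt1 and Mt2), 3 at 24 hrs (Klf15, Tsc22d3 and Mt2) and 6 over both times, with Pdk4 and Glul in addition to Klf15, Tsc22d3, Mt1 and Mt2. Of all probe sets, 0.196%, 0.249% and 0.579% rose in these 3 comparisons. In this fit no listed gene fell, and 0.0287%, 0.0383% and 0.167% of all probe sets did. With the pairs as a block, 8 of the 13 rose and 1, Angptl4, fell at 6 hrs, 7 rose at 24 hrs, and 9 rose and 1, Angptl4, fell over both times, where 0.904%, 2.15% and 3.2% of all probe sets were called in either direction. Klf15, a transcription factor that acts in muscle metabolism, had 135, 138 and 204 with DEX at 6 hrs, against 3.37, 4.33 and 7.99 in vehicle. It rose by 5.00 on the log2 scale at 6 hrs and by 4.36 at 24 hrs. Klf15 passed the minimum only through the DEX groups, with vehicle means of 5.23 and 13.2, so that its calls support nothing. It is nevertheless counted among the genes that rose in each of these comparisons, and the size of its rise rests on values near the floor. Tsc22d3, a glucocorticoid-induced leucine zipper protein, rose by 4.08 and 2.89 on the log2 scale. The atrophy ligases Fbxo32 and Trim63 did not reach the minimum, at up to 31.1 and 11.0 on any array.

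The spread between the cultures was wide in these genes at 24 hrs. Taking each pair of same-numbered DEX and vehicle arrays as 1 value, the range over the 3 pairs at 24 hrs was between 0.48 and 2.10 on the log2 scale for the 9 genes, with a median of 1.72, against 0.27 over all expressed probe sets. It was larger than the mean size of the DEX difference in 8 of 9 genes at 24 hrs, Myod1 being the exception, and in 9 of 9 at 6 hrs. Among all expressed ones this was so in 53.2% at the later time and in 83.6% at the earlier, so that the count at 6 hrs says little about these genes. At 24 hrs all 9 genes were lowest in replicate 2, with DEX and in vehicle alike. Of all 11053 expressed genes, 1805 (16.3%) were lowest there in both treatments and 16.7% were highest. At 6 hrs the range was between 0.36 and 2.17, with a median of 1.06 against 0.62, and the lowest pair was replicate 4 in 4 genes, replicate 1 in 4 and replicate 2 in 1. The arrays of replicate 2 at 24 hrs were the only ones of their hybridization day, so that culture and day cannot be told apart for it.

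Within a hybridization day the differences between cultures were less uniform. On the day that held replicates 1 and 2 at 6 hrs, replicate 2 was higher than replicate 1 in 6 of 9 genes with DEX and in 7 of 9 in vehicle, and in 6 of 9 in both. The difference, as the mean of both treatments, ran from -0.070 in Acta1 to 1.07 in Myh3 on the log2 scale. The arrays of that day also had a 3′ Gapdh control that exceeded the 5′ one by 0.49 to 0.74 on the log2 scale, against -0.33 to -0.22 on the other days, and its part in the result was not tested. On the day that held replicates 1 and 4 at 24 hrs, replicate 4 was higher in 4 of 9 genes with DEX and in 8 of 9 in vehicle, but in both in only 3 of 9 (Acta1, Tnnc1 and Mylpf), and in the other 6 the treatments differed in sign. The averages of both treatments ran there from -0.061 in Tnnt2 to 0.87 in Tnnc1.

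Muscle genes had positive correlations with each other across the 12 arrays once the 4 group means had been removed. Of 36 pairs among the 9 genes, 36 had a Pearson r above 0 and 25 above 0.5, with a median of 0.71. The points share cultures and hybridization days, and the values are a description without a test. All 9 genes were lowest in replicate 2 at 24 hrs, and r between them was not computed without that pair. At 6 hrs they were divided. The pair of replicate 4 was there the highest in Acta1, Mylpf and Des and the lowest in Actc1, Tnnt2, Myod1 and Myog. Actc1 and Myog were the closest, at 0.97. Myod1 followed Tnnt2 (0.94) and Myog (0.92), while Acta1 followed Mylpf (0.90) and Des (0.76). Des had the lowest median r with the rest, at 0.21.

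**Figure D3:**
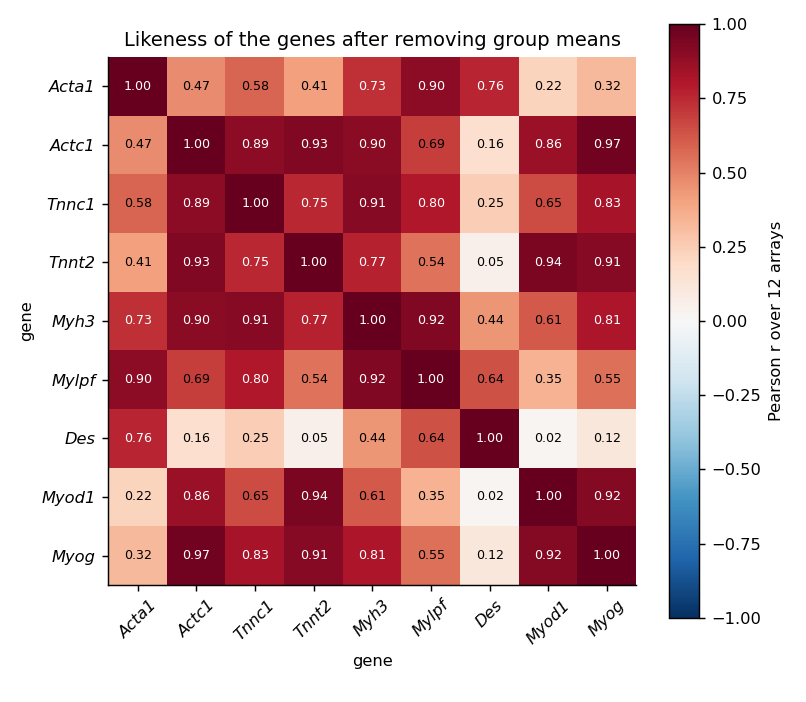
Pearson r over 12 arrays between the 9 expressed muscle genes, each array taken as its deviation from its group mean. All 36 pairs are above 0, and those of Des with Myod1 and Tnnt2 lie nearest to it.

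The mean of the 9 muscle genes includes Des. Of 11044 other expressed genes, the one that followed this mean most closely was Tnni1, the inhibitory troponin of slow fibres, with r = 0.97. It had 25.1, 38.9 and 65.9 with DEX at 6 hrs, against 36.0, 72.5 and 61.5 in vehicle. Its 24 hrs values were 65.2, 9.20 and 51.9 with DEX, against 81.5, 22.8 and 158 in vehicle. The next were Pknox2, Adamts5, Kitl, Mgst1, Bicc1, Rnase4, Jcad, Fzd1 and Ptn, with r between 0.94 and 0.97, and 0 of these 10 stayed among the top 10 when the pair of replicate 2 at 24 hrs was left out. Without that pair, r was 0.92 for Tnni1 and 0.40 for Ptn. The 13 expressed sarcomere genes outside the 10 were divided. Myl4, Tnnc2 and Myl1 were at ranks 16, 26 and 29, and at 130, 82 and 461 without that pair. At the other end, Tpm3, Myoz1, Myl3 and Ankrd1 had r of -0.20, -0.29, -0.52 and -0.53.

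The rest of the muscle programme was represented in part. Of 40 listed sarcomere genes other than the 10, 38 had a named probe set and 13 were expressed, and adult fast and slow myosins were not: Myh1, Myh2, Myh4 and Myh7 reached at most 12.2, 4.62, 25.2 and 16.4 on any array. Ttn, the elastic filament, and Neb, the thin filament ruler, were also below the minimum in every group. Expressed genes numbered 8 of 16 for excitation contraction coupling, 4 of 9 for the neuromuscular junction, 4 of 10 for membrane and fusion and 5 of 12 for energy metabolism. Of 15 myogenic regulators 8 were expressed. These were Mef2a, Mef2c, Mef2d, Six4, Eya1, Meox2, Srf and Smyd1. Over the 12 arrays Six4 ran from 82.9 to 236, Eya1 from 104 to 157 and Meox2 from 59.5 to 359. Pax7, Pax3, Myf5 and Myf6 were below the minimum and reached at most 13.1, 26.1, 6.87 and 7.54. In the fit without a block, DEX called 0 genes of these lists in each of its comparisons. With the pairs as a block, 4 of the 42 expressed genes of these lists were called at 24 hrs, against 2.15% of all probe sets. Tnni2, the inhibitory troponin of fast fibres, Ncam1, a cell adhesion molecule, and Eno3, the muscle enolase, were higher with DEX, by 1.26, 0.84 and 0.85 on the log2 scale, with adjusted limma p of 0.0263, 0.0420 and 0.0186 under the block. Dok7, an adaptor of the neuromuscular junction, was lower, at -1.18 (0.0422 under the block). The day as a block, which called 2.18% of all probe sets at 24 hrs, called the same 4 and Lrp4 (0.0457, log2 fold change 0.83). Lrp4 had passed the minimum only through DEX at 24 hrs, with a mean of 85.3 against 48.1 in vehicle, so that its call supports nothing. Over both times either block called Tnni2, Ncam1 and Eno3, where 3.2% of all probe sets were called with the pairs and 2.87% with the day.

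Other cell types the bones could hold were read from their own lists. The r given here is between the mean log2 deviation over the expressed genes of a list and the muscle mean, over the 12 arrays, and since each gene counts alike it can differ from that of the summed intensity, in which bright genes weigh most. Cartilage markers were expressed in 15 of 15 genes, with Col2a1, the main collagen of cartilage, at 4933, 5892 and 7000 with DEX at 24 hrs and 5897, 7893 and 6462 in vehicle. None of these 15 was lowest in replicate 2 at 24 hrs in both treatments, and the list had r = -0.19 with the muscle mean (-0.16 for its sum). Tendon and perichondrium, which lie beside muscle, had 10 of 10 expressed genes, 6 of them lowest in replicate 2 in both treatments and r = 0.73 (0.43 for its sum). Its summed intensity ran from 14224 to 21162 with DEX at 24 hrs and from 15888 to 18478 in vehicle. Smooth muscle had 9 of 12 expressed genes, 5 of them lowest there and r = 0.71 (0.65 for its sum). These list values were not computed without the pair of replicate 2 at 24 hrs, but single genes depended on it. Without that pair, r went from 0.82 to -0.51 in Postn and from 0.68 to -0.75 in Tnmd, but from -0.20 to 0.69 in Dcn. In smooth muscle it went from 0.81 to 0.11 in Actg2 and from 0.78 to -0.14 in Cnn1, but from -0.14 to 0.45 in Hspb6. Heart had 4 of 13 expressed genes, Nppb, Mybpc3, Hand2 and Tbx5, and r = 0.46 (0.65 for its sum). Mybpc3 ran from 53.5 to 98.0 over the 12 arrays, while Myh6 was among those below the minimum and reached 23.1 at most. Sarcomere genes outside the 10 gave r = 0.94 but 0.13 for their sum, which was highest in replicate 2 in vehicle at 24 hrs, and 6 of the 13 were lowest in replicate 2 in both treatments. Adipocytes gave -0.67 (-0.21 for their sum) and macrophages 0.22 (0.28). Over both times, without a block, DEX raised 1 of 9 smooth muscle genes (Mylk) and 1 of 3 adipocyte genes (Fabp4), against 0.579% of all probe sets. At 24 hrs either block called both and Postn, 1 of 10 tendon and perichondrium genes, higher. The pairs as a block, which called 2.15% of all, had 1 of 13 inhibitors and partners of the MyoD family, Twist2, lower. The part of these cell types in the muscle signal was not tested.

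**Figure D4:**
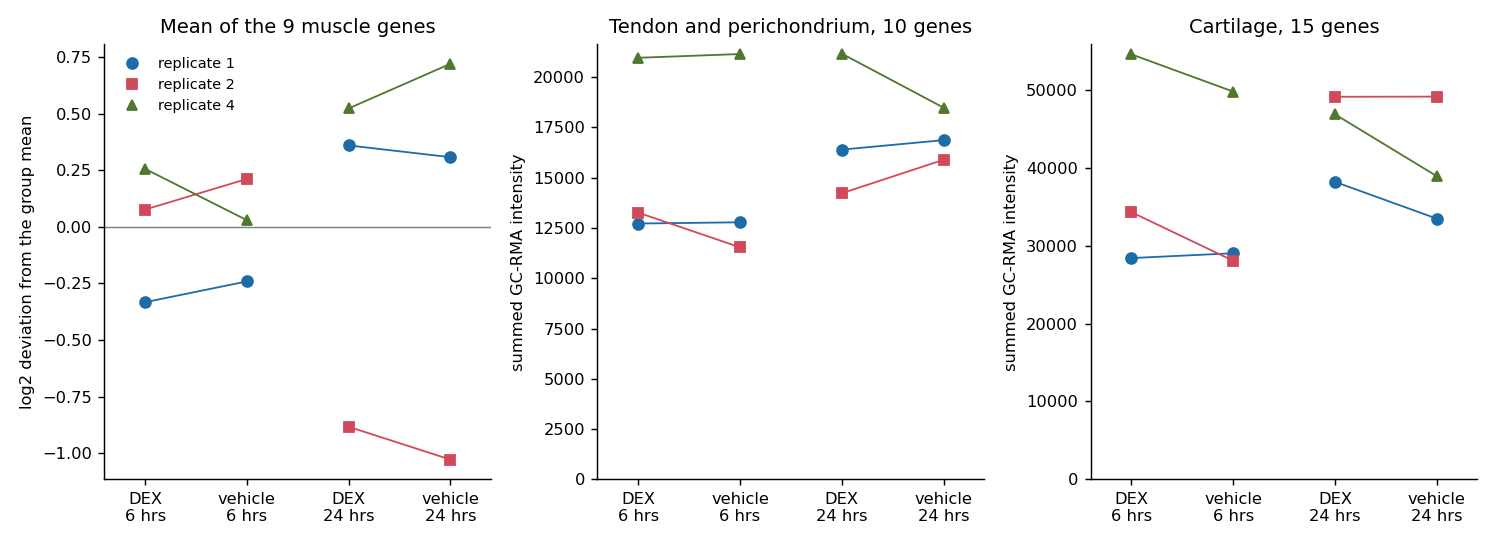
Mean of the 9 muscle genes as log2 deviation from the group mean (left), and summed GC-RMA intensity of the tendon and perichondrium list (middle) and of the cartilage list (right), with DEX left of vehicle. At 24 hrs the muscle mean of replicate 2 was -0.88 with DEX and -1.03 in vehicle. Its cartilage sum was the highest of the group in both, at 49095 with DEX and 49112 in vehicle.

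Between 24 and 6 hrs in vehicle 0 of 9 genes were called, against 0.00957% of all probe sets, and 1 of 9 had an unadjusted p under 0.05, against 30.5% of all. No hybridization day held both times, so time and day cannot be told apart. A block by replicate number called 0 of 9 and 6.61% of all probe sets. Log2 fold changes ran from -0.92 in Tnnt2 to 2.53 in Des, whose adjusted limma p was 0.102. The second Des probe set, below the minimum, had vehicle means of 34.2 at 6 hrs and 38.7 at 24 hrs. Des was called once replicate 4 at 6 hrs was left out, with adjusted limma p of 0.0244 without its DEX array, 0.0453 without its vehicle array and 0.00360 without both. These fits called 14.2%, 31.7% and 50.7% of all probe sets, and Des had passed the minimum only through vehicle at 24 hrs, so that this call supports nothing. The difference of the DEX effect, 24 minus 6 hrs, called 0 of 9 genes, against 0% of all probe sets, with values from -1.76 in Des to 0.10 in Mylpf and 1 of 9, Myod1, under an unadjusted p of 0.05 (3.63% of all).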

How the data were processed

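The authors corrected and scaled the scans with GC-RMA, which subtracts background estimated from base composition, and the deposited table holds linear intensities of 45101 probe sets on 12 arrays. Submitters' processing notes name GCRMA, whose version is not given in the sources used here. All values were above 0 and were taken to log2 without a pseudocount. Array medians lay between 25.7 and 39.1. An array has no read depth, and the number of arrays limits the precision. The 20897 probe sets whose mean reached 50 in any group entered the test in limma 3.58.1 (R 4.3.3), fitted over the 12 arrays with a mean for each group and without a block, with Benjamini-Hochberg adjustment and a threshold of 0.05. Whether replicates are separate cultures is given only by the paper as independent isolations, and p-values measure the spread between these arrays. A gene stands for its brightest expressed probe set. Of the probe sets, 34958 had 1 platform symbol, 932 several and 9211 none.

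The members and lists were chosen with earlier results of these data known. The text names the 10 genes, the 10 genes most like the muscle mean, and bright listed genes. It also names genes of each list past the threshold in the fit without a block, and some called only under a block. Other listed genes that are named, such as Pax7 or Ttn, were chosen after their values were seen. Numbers pair DEX and vehicle arrays within a time point. The deviations of same-numbered arrays from their group means correlated at 0.681, 0.632 and 0.863 at 6 hrs and at 0.158, 0.301 and 0.220 at 24 hrs. Same-numbered arrays shared a hybridization day and values for unlike numbers are not given, so that these values cannot tell culture from day. Between 6 and 24 hrs in vehicle, same-numbered arrays correlated at 0.062, -0.011 and -0.043. Hybridization days came from the array files. Day 1 held replicate 2 and day 2 replicates 1 and 4 at 24 hrs, day 3 held replicates 1 and 2 and day 4 replicate 4 at 6 hrs, each with DEX and vehicle. Descriptions in the files of the day 4 arrays carry another replicate number than the labels, which were followed. Alternatives covered the block, a pseudocount, the filter, quantile normalization, the arrays fitted, the methods' Welch test and each array or pair left out. On simulated data for 24 hrs over 20897 probe sets, the fit found 4%, 42%, 76% and 100% of log2 changes of 0.5, 1, 2 and 4. The changed probe sets were drawn at random from all expressed ones, whose median standard error was 0.26. Every tested muscle gene but Myod1 had a standard error from 0.49 to 0.83, so that these rates do not hold for them.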

Additional observations from a re-analysis of the deposited data

Results flagged for a closer look

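The DEX effect on Myod1 differed between the time points before adjustment. On the log2 scale DEX minus vehicle came to -0.57 at 24 hrs and to 0.24 at 6 hrs, lower in 3 of 3 pairs at 24 hrs and higher in 3 of 3 at 6 hrs. The difference of -0.81 (SE 0.30) passed an unadjusted 0.05 in limma but had an adjusted p of 1.00, of 0.278 with the pairs as a block and of 0.281 with the hybridization day as a block. Time and hybridization day cannot be told apart, and 7 of 12 arrays of Myod1 reached 50. The second Myod1 probe set, below the minimum, was higher with DEX in 2 of 3 pairs at either time.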

How the results depend on the processing

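With 9 genes in 5 comparisons, 1191 values were computed under alternatives, of which 124 changed sign and 4 came past the threshold. Of the 45 results, 14 kept their sign in every alternative run. With the hybridization day as a block, 1 of 9 genes was called at 24 hrs (Myod1), against 2.18% of all probe sets. Without replicate 4 of DEX or vehicle at 6 hrs, or of both, Des was called between the times in vehicle, against 14.2%, 31.7% and 50.7% of all probe sets, so that the count ran from 0 to 1 (log2 fold change 2.11 to 2.89 over the left-out replicates).

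Signs changed as follows. At 6 hrs Tnnt2 was -0.040 as the mean of its probe sets and -0.084 within day 3, Myh3 was -0.0018 with 16 added and -0.027 within day 4, and Des was -0.24 and Myog -0.018 within day 3. At 24 hrs Acta1 was 0.51, Myh3 0.22 and Mylpf 0.35 within day 1, and Tnnt2 was -0.14 within day 2. Over both times Tnnt2 was -0.0095 as the mean of its probe sets and Myh3 0.0091 after quantile normalization, which also gave -0.11 for Tnnc1 between the times in vehicle. Leaving out replicates gave, at 6 hrs, Acta1 -0.58 to 0.28, Actc1 -0.15 to 0.31, Tnnc1 -0.28 to 0.15, Tnnt2 -0.26 to 0.22, Myh3 -0.34 to 0.27, Mylpf -0.58 to 0.10, Des -0.51 to 1.24 and Myog -0.22 to 0.40. At 24 hrs it gave Acta1 -0.82 to 0.25, Tnnc1 -0.85 to 0.13, Tnnt2 -0.52 to 0.51, Myh3 -0.82 to 0.47 and Mylpf -0.81 to 0.39. Over both times it gave Acta1 -0.50 to 0.071, Tnnc1 -0.46 to 0.029, Tnnt2 -0.24 to 0.27, Myh3 -0.41 to 0.23, Mylpf -0.53 to 0.067, Des -0.86 to 0.012 and Myog -0.48 to 0.035. For the difference between times it gave Acta1 -0.65 to 0.44, Tnnc1 -0.78 to 0.20, Tnnt2 -0.56 to 0.48, Myh3 -0.82 to 0.46 and Mylpf -0.56 to 0.64. In vehicle over time it gave Acta1 -0.51 to 0.57, Actc1 -0.58 to 0.40, Tnnc1 -0.47 to 0.51, Myh3 -0.67 to 0.60, Mylpf -0.13 to 1.07 and Myod1 -0.18 to 0.16. The causes were not tested.

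Of the 10 genes most like the muscle mean, 4 stayed among the 10 with raw log2 values, 0 with deviations from the day mean, and 0 to 6 when a pair was left out. With the pairs as a block the lowest adjusted p at 24 hrs was 0.0576, and 0 members were called in any comparison, where the DEX comparisons called 0.904% of all probe sets at 6 hrs, 2.15% at the later time and 3.2% with both together. For both times together and for the difference, fits of only the arrays compared and values within a day were not run.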
